A study of Mus musculus with 16 samples.

Results

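The genes described here are the axon guidance ligands and receptors: the semaphorins of classes 3 to 7 with their neuropilin and plexin receptors, the ephrins with the Eph receptors, the Slits with the Robo receptors, and the netrins with their receptors. They were chosen by gene symbol, and 73 of the 24063 genes present in both deposited tables are members, of which 37 encode ligands and 36 encode receptors. All samples are AtT-20 cells, which derive from a mouse pituitary tumour and make pro-opiomelanocortin as corticotropes do. RNA was depleted of ribosomal RNA and sequenced from 16 libraries. One set of cells carried 3x flag-Pax7 and was set against cells carrying 3x flag-Neo, with 2 libraries each and no treatment. The other carried 3x flag-ER-Pax7, a fusion in which 4-hydroxy-Tamoxifen activates Pax7, and was sequenced after 0, 12, 24 and 96 h of that compound with 3 libraries at each time. The 0 h cells carry the fusion too and were not treated, and no cells without the fusion were given the compound, so effects of Pax7 and of the compound cannot be told apart in this course. Pax7 and Neo are 1 cell population each. Whether replicates came from separate cultures is not stated, and a p-value here speaks only of the spread among these libraries, which may be technical.

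These families steer growing axons, and many of them also act in vessels, immune cells and epithelia. Semaphorins signal through plexins. Those of class 3 are secreted and mostly need a neuropilin as coreceptor, whereas those of classes 4 to 6 are transmembrane proteins that bind plexins directly. Ephrins and Eph receptors both sit in the membrane and signal in both directions when cells touch, the A-type ephrins on a lipid anchor and the B-type with a cytoplasmic tail. Slits repel axons through Robo receptors. Netrins attract them through Dcc and repel them through the Unc5 receptors, and neogenin (Neo1) binds both netrins and the repulsive guidance molecules. Pax7 is the pioneer transcription factor that sets the melanotrope, the other pro-opiomelanocortin cell of the pituitary, apart from the corticotrope.

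In the ER-Pax7 libraries 61.4 to 88.7 M reads (M, mega) were counted over exons. The 12 h library of replicate 2 stood apart: its counts differed from those of the other 12 h libraries by a chi-square per gene of 44.6 and 50.4, against 5.82 to 14.2 for every other pair of replicates, and the share of its reads on ribosomal Rn45s was 2.345%, against 0.753% to 1.26% in the other 11 libraries. Depth is not stated for the Neo and Pax7 libraries. The labels held at the construct genes: Pax7 was listed at 2.38 and 2.39 FPKM in Pax7 cells, against 0 and 0.01 FPKM in Neo cells, and Esr1, whose product gives the fusion its hormone-binding part, was listed at 0 in all 4 of those libraries and between 1064 and 1296 scaled exon reads in the ER-Pax7 libraries. A listed 0 does not show absence, since the GTPase gene Rhoa, which nearly every cell uses, was also listed at 0 in those 4 libraries and at 0 to 0.54 scaled exon reads in the ER-Pax7 libraries. The corticotrope label held as well, with 1 gene above Pomc in exon reads per kb of transcript at 0 h. FPKM values cover whole gene bodies, introns included, and scaled exon reads cover exons, so levels were never compared between the tables.

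The cells transcribed a part of the guidance repertoire (shown in the plot of levels at 0 h). At 0 h, 45 of the 73 members averaged at least 1 scaled exon read per kb of transcript, 34 at least 10 and 8 at least 100, where the median of all genes above 0 was 38.6. Plexin-B2 (Plxnb2), the receptor of class 4 semaphorins such as Sema4c, had the highest level, 296 ± 4.19 per kb (SD, n = 3). Next came the receptor kinase Ephb2 with 239 ± 4.75 per kb, Neo1 with 185 ± 3.39, the laminin-binding netrin Ntn4 with 175 ± 9.97, Ephb3 with 171 ± 3.07, neuropilin 1 (Nrp1) with 113 ± 2.92, Unc5b with 103 ± 3.40 and Unc5a with 100.3 ± 6.18. Ephb3 and Ntn4 did not differ beyond their spread, nor did Unc5a and Unc5b. The semaphorin with the highest level was Sema4c, at 98.1 ± 3.33 per kb, followed by the secreted Sema3f at 85.4 ± 3.26. B-type ephrins were led by Efnb1 (92.2 ± 1.47 per kb) and A-type ephrins by Efna2 (51.0 ± 1.10 per kb).

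Other branches had low levels. In the ER-Pax7 libraries 1 read was worth 0.0813 to 0.118 scaled exon reads, so 1 scaled exon read stands for several reads. Of the 73 members, 55 passed the filter of the ER-Pax7 table, at least 1 scaled exon read in at least 3 libraries, and 39 of these also passed that of the Neo and Pax7 table, at least 0.1 FPKM in at least 2 libraries. The other 18 passed neither. They are Dcc, Efna4, Epha2, Epha3, Epha4, Epha6, Ephb1, Ntng1, Plxna4, Robo2, Robo4, Sema3a, Sema3c, Sema3d, Sema3e, Slit2, Slit3 and Unc5d, and none of them exceeded 1.16 scaled exon reads in any of the 12 libraries. Among the Slits and Robo receptors, Slit1 had the highest level with 4.43 ± 0.140 scaled exon reads per kb at 0 h, and Robo3, an atypical Robo that lacks Slit binding in mammals, had 0.215 ± 0.0719. The attractive netrin receptor Dcc was listed between 0 and 1.16 scaled exon reads over the 12 libraries, and netrin 1 (Ntn1), its ligand, between 0.32 and 2.08.

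**Figure D1:**
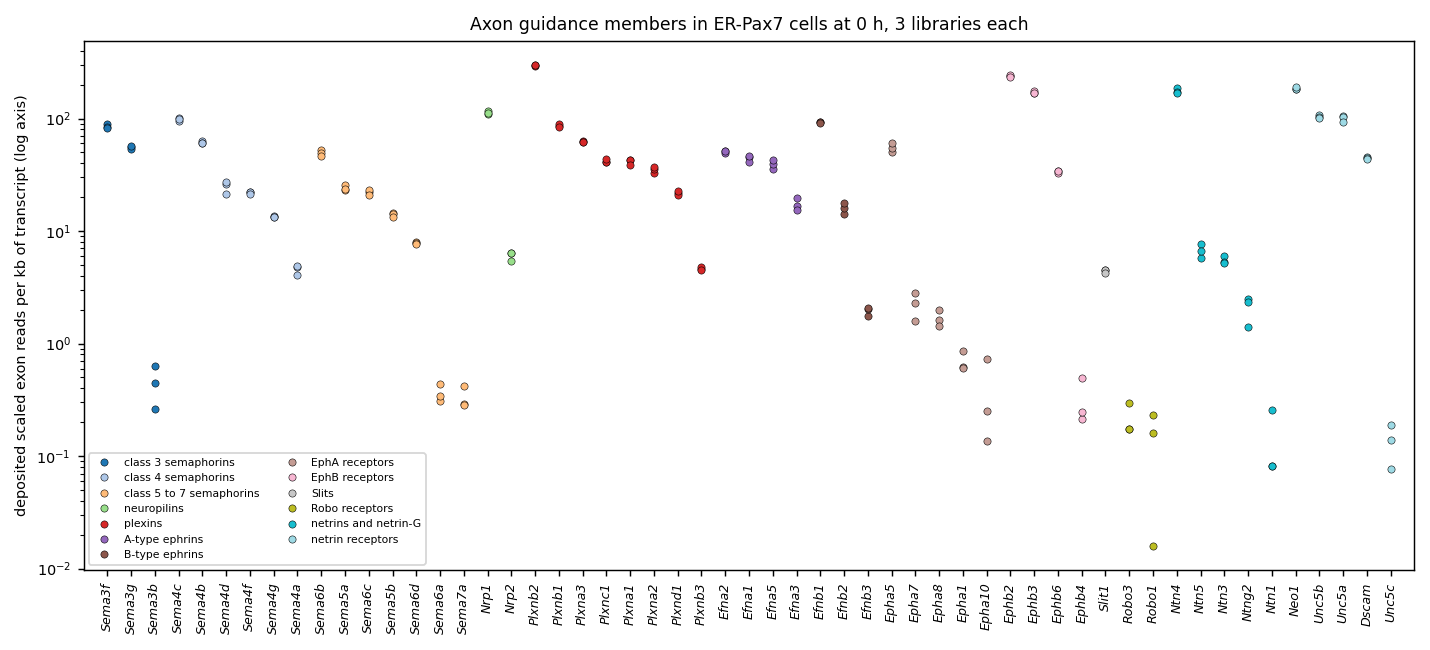
Deposited scaled exon reads per kb of transcript (log axis) of the 55 members that passed the filter of the ER-Pax7 table, in the 3 libraries at 0 h, coloured by family. Plxnb2, Ephb2, Neo1 and Ntn4 lie highest, and the Robo receptors, Ntn1 and Unc5c lie below 1 read per kb.

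In cells with constitutive Pax7, 14 of the 39 members tested passed the threshold (an adjusted p below 0.05), 9 of them higher and 5 lower than in Neo cells. That is 35.9% of members, beside 36.6% of all 13393 genes tested, of which 18.1% were higher and 18.5% lower. Of the members, 7 were called with a log2 difference of at least 0.5 and no overlap of the groups, 4 higher and 3 lower, where 8.34% of all genes were. The members' median log2 difference was 0.05, beside 0.00 over all genes. The count rests on all 4 libraries: it was 8 and 7 without Neo replicates 1 and 2, and 7 and 9 without Pax7 replicates 1 and 2. The 9 that rose were Sema4c, Sema6b, Sema6d, Plxna3, Plxnb1, Ephb2, Efnb2, Ntn3 and Neo1, and the 5 that fell were Sema3f, Plxnd1, Efna3, Epha5 and Ephb3. Epha5 passed the filter through the Neo libraries alone. Without TMM factors 13 were called, 10 higher and 3 lower, and 67.7% of all called genes were higher, against 49.4% with the factors.

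In the ER-Pax7 course more members passed at the last time. At 12 h, 11 of 55 members tested were called against 0 h, 3 higher and 8 lower, where 6.53% of all 15188 genes tested were called, 2.92% higher and 3.61% lower. At 24 h, 14 were called, 4 higher and 10 lower, where 13.6% of all genes were called, 5.66% higher and 7.92% lower. At 96 h, 32 were called, 8 higher and 24 lower, which is 58.2% of members beside 33.8% of all genes. The members' share called lower at 96 h was 43.6%, beside 17.3% of all genes, and their share called higher was 14.5%, beside 16.5%. With a difference of at least 0.5 and no overlap 12 members were called, 2 higher and 10 lower, where 6.64% of all genes were. The median log2 difference of the members at 96 h was −0.13, beside 0.00 over all genes. Between 96 h and 24 h, 15 members were called and each was lower at 96 h, where 12.6% of all genes were called, 6.03% higher and 6.62% lower. The comparisons at 12, 24 and 96 h share their 0 h libraries. Without the 12 h library that stood apart, 12 members were called at 12 h, and each of the 11 called with it was among them.

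Among the secreted class 3 semaphorins the transcript of Sema3f, which repels axons through neuropilin 2 and A-type plexins, fell in both sets of cells. Sema3f (mm10 chromosome 9, 107681502 to 107710475) had 1.54 and 1.68 FPKM in Pax7 cells, against 2 and 1.83 FPKM in Neo cells. The groups did not overlap (log2 −0.31, SE 0.0724; limma, adjusted p = 0.0388), but the call was lost without Neo replicate 1, Neo replicate 2 or Pax7 replicate 1, where adjusted p reached 0.127 (limma), without TMM factors and without the filter on low values. Over the ER-Pax7 course Sema3f had 300.4, 284 and 279.5 scaled exon reads at 0 h, 255, 273 and 242 at 12 h, 229.5, 239.6 and 232 at 24 h and 159, 167 and 151 at 96 h. Its level fell at each step, and the 96 h libraries lay below all libraries of the earlier times (log2 −0.86 at 96 h against 0 h, SE 0.0536; limma, adjusted p = 1.25e-10). The step from 24 h was called as well (log2 −0.54, SE 0.0536; limma, adjusted p = 9.77e-07). Sema3g, the other class 3 member tested in both tables, was not called in either, with log2 −0.10 in Pax7 against Neo cells and −0.03 at 96 h. Sema3b was tested in the ER-Pax7 table alone, at 0.93 to 2.52 scaled exon reads, and was not called.

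Among class 4 semaphorins Sema4c rose and no other member rose in either set of cells. Sema4c (mm10 chromosome 1, 36548640 to 36558381), a transmembrane ligand of plexin-B2, had 7.95 and 8.24 FPKM in Pax7 cells, against 4.22 and 4.12 FPKM in Neo cells. All Pax7 values lay above all Neo values (log2 0.87, SE 0.0455; limma, adjusted p = 0.00266). In the ER-Pax7 course it had 382, 358 and 375 scaled exon reads at 0 h, 461, 449 and 458 at 12 h, 473, 480.4 and 461 at 24 h and 493, 451 and 456 at 96 h. The 3 libraries at 12 h already lay above those at 0 h (log2 0.29, SE 0.0413; limma, adjusted p = 6.58e-05), and the levels at 24 and 96 h lay close to that of 12 h (log2 0.32 at 96 h against 0 h, SE 0.0413; limma, adjusted p = 4.1e-06). Its receptor gene Plxnb2 was not called in any comparison. Plxnb2 had 14.3 and 14.1 FPKM in Pax7 cells, against 13.7 and 12.5 FPKM in Neo cells (log2 0.04, SE 0.0425; limma, adjusted p = 0.491), and in the ER-Pax7 course it had 1896, 1923 and 1950.4 scaled exon reads at 0 h, 1956, 2015 and 1869 at 12 h, 1979, 1996 and 1853 at 24 h and 1911, 1859 and 1839 at 96 h (log2 −0.05 at 96 h against 0 h, SE 0.0373; limma, adjusted p = 0.374). Sema4a and Sema4f fell at 96 h, by 0.48 and 0.25 on the log2 scale (by limma, adjusted p = 0.0106 and 0.00708). The call of Sema4a was lost without 96 h replicate 2 (by limma, adjusted p = 0.0502), and in the other table it passed the filter only through the Pax7 libraries. Sema4b, Sema4d, a ligand of plexin-B1, and Sema4g were not called in Pax7 against Neo cells or at 96 h against 0 h.

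Of the transmembrane semaphorins of classes 5 and 6, Sema6b rose in both sets of cells. Sema6b (mm10 chromosome 17, 56123085 to 56133852), a ligand of A-type plexins, had 5.45 and 6.07 FPKM in Pax7 cells, against 3.05 and 3 FPKM in Neo cells (log2 0.83, SE 0.0778; limma, adjusted p = 0.0062). Along the time course it had 199.9, 188 and 179 scaled exon reads at 0 h, 244, 255 and 224 at 12 h, 238, 251 and 244 at 24 h and 277, 272 and 248 at 96 h. Every library after 0 h lay above all 0 h libraries, and the difference was called at 12 h (log2 0.34) and at the last time (log2 0.48 at 96 h against 0 h, SE 0.0578; limma, adjusted p = 1.66e-06). Sema6a and Sema5b, tested in the ER-Pax7 table alone, also rose at 96 h. Sema6a had 2.12, 3.03 and 2.36 scaled exon reads at 0 h, 2.88, 4.13 and 2.95 at 12 h, 5.78, 2.89 and 2.52 at 24 h and 4.5, 5.2 and 5.28 at 96 h (log2 0.78 at 96 h against 0 h, SE 0.225; limma, adjusted p = 0.0109). Sema5b was higher by 0.29 on the log2 scale (by limma, adjusted p = 0.0107). Sema5a, whose product binds plexin-B3, fell by 0.20 at 96 h and by 0.26 at 12 h on the log2 scale (by limma, adjusted p = 0.0068 and 0.003). Sema6d was higher in Pax7 cells by 0.27 (by limma, adjusted p = 0.0358), a call that needed all 4 libraries (by limma, adjusted p up to 0.13) and the filter, and was not called at 96 h (log2 −0.12). Sema6c was called in neither comparison.

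Both neuropilin genes fell over the ER-Pax7 course and neither passed in Pax7 against Neo cells. Nrp1 (mm10 chromosome 8, 128359073 to 128505475), the coreceptor of Sema3a and of vascular endothelial growth factor, had 652, 686 and 663 scaled exon reads at 0 h, 584, 590.0 and 589.9 at 12 h, 540.4, 527 and 522 at 24 h and 459, 442 and 455 at 96 h. No 2 times overlapped, and the fall was called at 12 h (log2 −0.18; limma, adjusted p = 0.00201), at 24 h (log2 −0.35; limma, adjusted p = 6.01e-07) and at the last time (log2 −0.56 at 96 h against 0 h, SE 0.0355; limma, adjusted p = 1.42e-10). Nrp1 had 0.45 and 0.43 FPKM in Pax7 cells, against 0.52 and 0.47 FPKM in Neo cells (log2 −0.20, SE 0.0535; limma, adjusted p = 0.0517). The micro-RNA gene Mir1903 lies within Nrp1. Nrp2, the coreceptor of Sema3f, had 36.7, 42.5 and 43 scaled exon reads at 0 h, 39.6, 40.9 and 40.2 at 12 h, 34.7, 37.4 and 35.5 at 24 h and 29.1, 29 and 26.4 at 96 h. Its 96 h libraries lay below all others (log2 −0.52 at 96 h against 0 h, SE 0.0893; limma, adjusted p = 0.000125). In the other table Nrp2 had 0.17 and 0.14 FPKM in Pax7 cells, against 0.11 and 0.1 FPKM in Neo cells, with no overlap and no call (log2 0.27, SE 0.0832; limma, adjusted p = 0.0724). A gene on the opposite strand, 4930487H11Rik, overlaps Nrp2, and reads counted without strand cannot be told apart between them.

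Plexin D1 (Plxnd1, mm10 chromosome 6, 115954811 to 115995005), the receptor of Sema3e that is best known from blood vessels, had the largest fall at 96 h of the members tested in both tables. Plxnd1 had 149.6, 143 and 156 scaled exon reads at 0 h, 99.9, 104 and 97.5 at 12 h, 82.8, 87.9 and 86.3 at 24 h and 49.4, 58.6 and 55.7 at 96 h. The groups did not overlap between any 2 times. The difference was called at 12 h (log2 −0.57, SE 0.0699; limma, adjusted p = 1.27e-05), at 24 h (log2 −0.81, SE 0.0699; limma, adjusted p = 5.19e-08) and at the last time (log2 −1.45 at 96 h against 0 h, SE 0.0699; limma, adjusted p = 1.93e-12), and again between 96 h and 24 h (log2 −0.63, SE 0.0699; limma, adjusted p = 4.12e-06). In cells with constitutive Pax7 the transcript was lower too, with 0.25 and 0.22 FPKM in Pax7 cells, against 0.6 and 0.51 FPKM in Neo cells (log2 −1.02, SE 0.0806; limma, adjusted p = 0.00494). Sema3e, its ligand, was among the members that passed neither filter.

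Plexin-B1 (Plxnb1), the receptor of Sema4d, rose in Pax7 cells, with 4.18 and 4.09 FPKM in Pax7 cells, against 2.68 and 2.75 FPKM in Neo cells (log2 0.51, SE 0.0414; limma, adjusted p = 0.00503). In the ER-Pax7 course it had 730.4, 761 and 726 scaled exon reads at 0 h, 804, 800.1 and 809.7 at 12 h, 816, 810.2 and 763 at 24 h and 802, 819.8 and 768 at 96 h (log2 0.10 at 96 h against 0 h, SE 0.0362; limma, adjusted p = 0.0351). That call was lost without 0 h replicate 1 or 3 or without 96 h replicate 1 or 2 (by limma, adjusted p up to 0.156). Plxna3, a plexin used by Sema3f with neuropilin 2, was higher in Pax7 cells by 0.26 on the log2 scale (by limma, adjusted p = 0.0105) and was not called at 96 h (log2 −0.09). The call in Pax7 cells was lost without either Pax7 library (by limma, adjusted p up to 0.0607). Plxna2, Plxnb3 and Plxnc1 fell at 96 h, by 0.23, 0.42 and 0.38 on the log2 scale (by limma, adjusted p = 0.00226, 0.0144 and 1.55e-06). Without 96 h replicate 3 Plxnb3 was not called (by limma, adjusted p = 0.102). Plxna1 was called at 24 h alone (log2 0.17; limma, adjusted p = 0.0473), and that call was lost in a fit of the 0 h and 24 h libraries alone, without the filter on low values and without 0 h replicate 2 or 3 or 24 h replicate 1 or 2 (by limma, adjusted p up to 0.243).

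**Figure D2:**
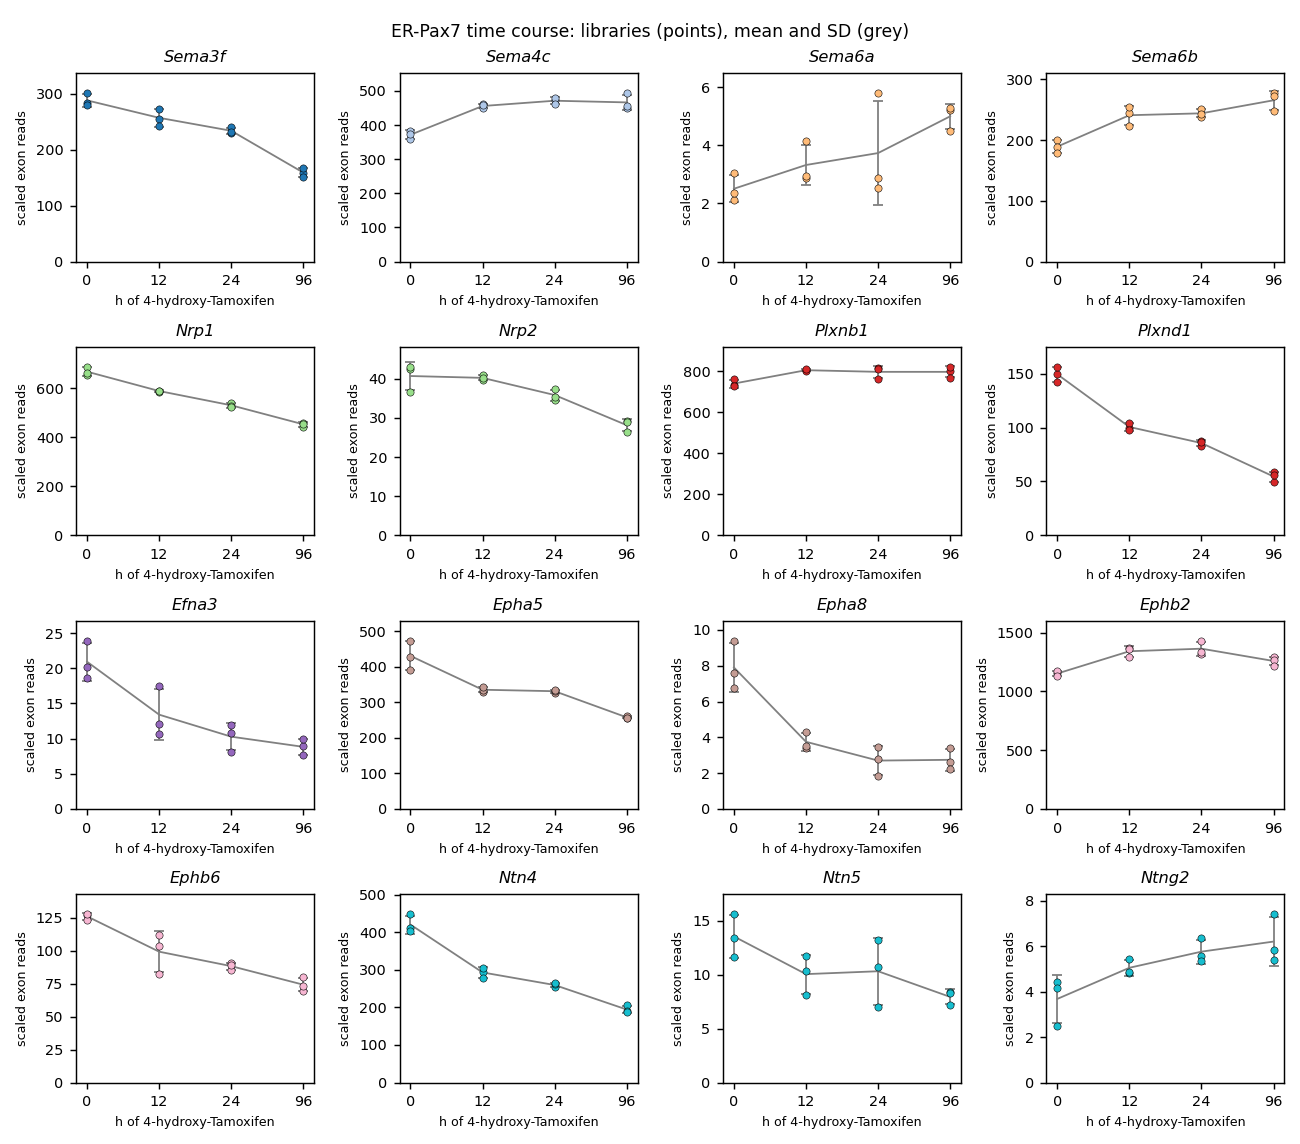
Deposited scaled exon reads at 0, 12, 24 and 96 h of 4-hydroxy-Tamoxifen (times evenly spaced on the axis) for the 16 members called at 96 h against 0 h and called by at least 0.5 on the log2 scale there or in Pax7 against Neo cells. Points are libraries, grey lines join the means, and bars are the SD (n = 3). Sema4c, Sema6b and Ephb2 are higher at 12 h, whereas Plxnd1, Ntn4, Nrp1 and Epha5 fall from 12 h on.

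All 4 A-type ephrin genes tested were lower at 96 h than at 0 h. Efna3 (mm10 chromosome 3, 89314951 to 89322879) had 20.2, 18.6 and 23.9 scaled exon reads at 0 h, 12, 17.5 and 10.7 at 12 h, 8.09, 11.9 and 10.8 at 24 h and 8.9, 9.87 and 7.69 at 96 h. Each library after 0 h lay below all 0 h libraries, and the last fall was called (log2 −1.16 at 96 h against 0 h, SE 0.172; limma, adjusted p = 2.33e-05). The fall at 12 h was also called (log2 −0.63; limma, adjusted p = 0.0294), but not without the filter, nor without 0 h replicate 1 or 3 or 12 h replicate 1 or 3 (by limma, adjusted p up to 0.155). In cells with constitutive Pax7 the transcript was lower as well, with 0.28 and 0.32 FPKM in Pax7 cells, against 0.69 and 0.63 FPKM in Neo cells (log2 −0.99, SE 0.0828; limma, adjusted p = 0.00527). Efna1, Efna2 and Efna5 fell by 0.33, 0.22 and 0.33 at 96 h on the log2 scale (by limma, adjusted p = 0.0394, 0.00772 and 0.000143) and were not called between Pax7 and Neo cells (log2 −0.45, −0.03 and 0.06). The groups of Efna1 overlapped, and its call was lost without the filter and without 0 h replicate 1 or 3 or 96 h replicate 2 or 3 (by limma, adjusted p up to 0.194). Efna2 had 109.8, 106 and 109 scaled exon reads at 0 h, 103, 98.7 and 101 at 12 h, 111, 109.7 and 118 at 24 h and 99.9, 89.1 and 90 at 96 h, and 1.92 and 1.91 FPKM in Pax7 cells, against 2.02 and 1.7 FPKM in Neo cells. Bc1, a gene on the opposite strand, overlaps Efna2.

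The B-type ephrin Efnb2 was the 1 member called in opposite directions. Efnb2, whose product is a ligand of EphB receptors, had 0.2 and 0.21 FPKM in Pax7 cells, against 0.12 and 0.12 FPKM in Neo cells (log2 0.42, SE 0.0693; limma, adjusted p = 0.0174). Efnb2 in the ER-Pax7 cells had 60.5, 69.4 and 76.9 scaled exon reads at 0 h, 67.6, 75.9 and 76.1 at 12 h, 66.9, 70.9 and 67.9 at 24 h and 59.7, 50.1 and 47.8 at 96 h (log2 −0.39 at 96 h against 0 h, SE 0.0931; limma, adjusted p = 0.00264). Neither pair of groups overlapped. The call in Pax7 cells needed all 4 libraries (by limma, adjusted p up to 0.0932), and the difference between the 2 systems was not tested. Efnb1 had 304, 301 and 294 scaled exon reads at 0 h, 319.9, 307 and 315 at 12 h, 319, 299.7 and 293 at 24 h and 274, 266 and 267 at 96 h (log2 −0.16 at 96 h against 0 h, SE 0.0419; limma, adjusted p = 0.00509). It had 3.43 and 3.56 FPKM in Pax7 cells, against 2.97 and 2.88 FPKM in Neo cells, with no overlap and no call (log2 0.17, SE 0.0466; limma, adjusted p = 0.0525). Efnb3 was called in neither.

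Of the EphA receptor genes, which bind mostly A-type ephrins, Epha5 fell in both sets of cells. Epha5 (mm10 chromosome 5, 84054765 to 84417382) had 392, 427 and 474 scaled exon reads at 0 h, 329, 335 and 343 at 12 h, 326, 333 and 336 at 24 h and 256, 261 and 257 at 96 h. The 96 h libraries lay below all earlier ones and the 0 h libraries above all later ones (log2 −0.74 at 96 h against 0 h, SE 0.0518; limma, adjusted p = 7.51e-10). The step from 24 h to 96 h was called too (log2 −0.35, SE 0.0518; limma, adjusted p = 0.00011), whereas the levels at 12 and 24 h lay together. In the other table Epha5 had 0.06 and 0.06 FPKM in Pax7 cells, against 0.17 and 0.17 FPKM in Neo cells (log2 −0.79, SE 0.0699; limma, adjusted p = 0.00556). It passed the filter there only through the Neo libraries, and its values lie near the rounding step of the deposited FPKM. Without either Neo library it passed no filter and could not be fitted. Epha8, at far lower levels, had 9.4, 7.57 and 6.75 scaled exon reads at 0 h, 4.32, 3.41 and 3.52 at 12 h, 1.85, 2.79 and 3.46 at 24 h and 2.6, 2.23 and 3.4 at 96 h (log2 −1.26 at 96 h against 0 h, SE 0.201; limma, adjusted p = 5.86e-05). Its libraries after 0 h all lay below those at 0 h. Epha1, Epha7 and Epha10 were tested in the ER-Pax7 table and not called.

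The EphB receptor genes moved in both directions. Ephb2 (mm10 chromosome 4, 136653614 to 136836011) had 1.49 and 1.47 FPKM in Pax7 cells, against 0.85 and 0.81 FPKM in Neo cells (log2 0.69, SE 0.0376; limma, adjusted p = 0.00279). Ephb2 in the ER-Pax7 cells had 1156, 1174 and 1128 scaled exon reads at 0 h, 1374, 1363 and 1291 at 12 h, 1323, 1432 and 1338 at 24 h and 1295, 1265 and 1219 at 96 h. Every library after 0 h lay above all 0 h libraries, by log2 0.22 at 12 h and 0.23 at 24 h (by limma, adjusted p = 0.000817 and 0.000301). The last difference was smaller (log2 0.12 at 96 h against 0 h, SE 0.0386; limma, adjusted p = 0.0184) and was lost without 0 h replicate 3 or 96 h replicate 1 or 2 (by limma, adjusted p up to 0.085). Ephb6, an Eph receptor without kinase activity, fell over the course, with 127, 123 and 127 scaled exon reads at 0 h, 112, 103 and 82.1 at 12 h, 85.3, 90.5 and 88.8 at 24 h and 79.7, 69.6 and 73.2 at 96 h (log2 −0.76 at 96 h against 0 h, SE 0.0875; limma, adjusted p = 9.02e-07). Its call at 12 h was lost without the filter and without 12 h replicate 3 (by limma, adjusted p = 0.091). Ephb6 had 0.46 and 0.51 FPKM in Pax7 cells, against 0.59 and 0.55 FPKM in Neo cells, with no overlap and no call (log2 −0.26, SE 0.0747; limma, adjusted p = 0.0617). Ephb3 was lower in Pax7 cells by 0.16 on the log2 scale (by limma, adjusted p = 0.0228), a call that needed all 4 libraries (by limma, adjusted p up to 0.11) and the TMM factors, and was not called at 96 h (log2 −0.09).

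No Slit or Robo gene passed in any comparison. Slit1 had 23.4, 23.5 and 22.2 scaled exon reads at 0 h, 19.4, 19.5 and 20.9 at 12 h, 20.4, 21 and 17.3 at 24 h and 18.7, 20.1 and 18.2 at 96 h (log2 −0.27 at 96 h against 0 h, SE 0.105; limma, adjusted p = 0.0534), so that the later libraries all lay below those at 0 h without passing the threshold. Robo3 had 0.82, 1.4 and 0.81 scaled exon reads at 0 h, 2.06, 1.24 and 0.91 at 12 h, 1.97, 1.29 and 1.47 at 24 h and 1.5, 0.85 and 1.25 at 96 h, and its groups overlapped (log2 0.13 at 96 h against 0 h, SE 0.244; limma, adjusted p = 0.723). Robo1 was at 0.12 to 2.06. In the 4 Pax7 and Neo libraries Slit1 and Robo3, like Epha8, Ntng2 and Sema6a, stayed below the filter, at 0 to 0.09 FPKM.

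Netrin 4 (Ntn4, mm10 chromosome 10, 93641049 to 93745972), which binds laminins in basement membranes, fell over the ER-Pax7 course. Ntn4 had 448, 410.3 and 403 scaled exon reads at 0 h, 295, 306 and 279 at 12 h, 253, 261 and 264 at 24 h and 205, 189 and 188 at 96 h. No 2 times overlapped, and the fall was called at 12 h (log2 −0.52, SE 0.0519; limma, adjusted p = 8.03e-07), at 24 h (log2 −0.71, SE 0.0519; limma, adjusted p = 4.57e-09) and at the last time (log2 −1.11 at 96 h against 0 h, SE 0.0519; limma, adjusted p = 1.29e-12). In the other table it had 0.55 and 0.54 FPKM in Pax7 cells, against 0.59 and 0.56 FPKM in Neo cells, with no overlap and no call (log2 −0.13, SE 0.0440; limma, adjusted p = 0.0879). The opposite-strand genes Gm8580 and Gm15915 overlap Ntn4. Ntn5 had 11.6, 15.6 and 13.4 scaled exon reads at 0 h, 8.13, 10.3 and 11.7 at 12 h, 10.8, 13.2 and 7.03 at 24 h and 8.4, 8.28 and 7.15 at 96 h (log2 −0.70 at 96 h against 0 h, SE 0.182; limma, adjusted p = 0.00518), and 0.48 and 0.56 FPKM in Pax7 cells, against 0.44 and 0.45 FPKM in Neo cells, which was not called. Sec1 on the opposite strand overlaps it. Ntn3 was higher in Pax7 cells by 0.39 on the log2 scale (by limma, adjusted p = 0.0184), a call lost without Neo replicate 2 or either Pax7 library (by limma, adjusted p up to 0.0831), and Tbc1d24 overlaps it on the same strand. Ntng2, a netrin-G on a lipid anchor, had 2.47, 4.42 and 4.15 scaled exon reads at 0 h, 4.84, 4.86 and 5.45 at 12 h, 6.36, 5.57 and 5.35 at 24 h and 7.4, 5.84 and 5.37 at 96 h (log2 0.64 at 96 h against 0 h, SE 0.185; limma, adjusted p = 0.0112). Its call was lost without 0 h replicate 1 or 96 h replicate 1 (by limma, adjusted p up to 0.0803), and 6530402F18Rik overlaps it.

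Of the netrin receptor genes Neo1 rose and the others that were called fell. Neo1 (mm10 chromosome 9, 58874680 to 59036441) had 1340.5, 1355 and 1389 scaled exon reads at 0 h, 1366, 1497 and 1339 at 12 h, 1440.4, 1490.4 and 1423 at 24 h and 1526, 1573 and 1556 at 96 h. Its mean rose at each step, and the 96 h libraries lay above all earlier ones (log2 0.18 at 96 h against 0 h, SE 0.0404; limma, adjusted p = 0.00137). It had 1.22 and 1.15 FPKM in Pax7 cells, against 0.98 and 0.92 FPKM in Neo cells (log2 0.22, SE 0.0396; limma, adjusted p = 0.0211), a call that needed all 4 libraries (by limma, adjusted p up to 0.0938). Unc5a, Unc5b and Dscam fell at 96 h by 0.19, 0.13 and 0.17 on the log2 scale (by limma, adjusted p = 0.00748, 0.0189 and 0.0177), and none was called between Pax7 and Neo cells. Hk3, a gene on the opposite strand, overlaps Unc5a. Unc5b was not called without 0 h replicate 1 or 96 h replicate 2 or 3, and Dscam not without 96 h replicate 3 (by limma, adjusted p up to 0.0987 and 0.0885).

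**Figure D3:**
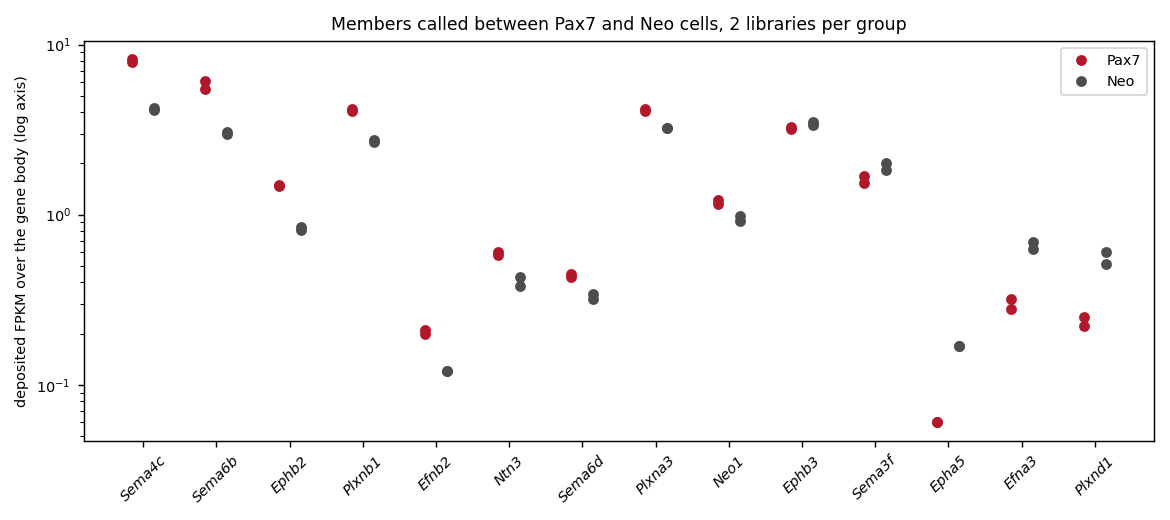
Deposited FPKM over the gene body (log axis) of the 14 members called between Pax7 and Neo cells, 2 libraries per group, ordered by log2 difference. Sema4c and Sema6b lie highest above Neo at the left, and Plxnd1, Efna3 and Epha5 lie below Neo at the right.

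By time, 11 members were first called at 12 h, 4 at 24 h (Plxna1, Plxnc1, Sema3f and Sema4a) and 18 at 96 h. The 11 were Sema4c, Sema6b and Ephb2, which were higher, and Efna3, Epha5, Epha8, Ephb6, Nrp1, Ntn4, Plxnd1 and Sema5a, which were lower. All 11 were called again at 96 h. Of the 32 members called at 96 h, 13 had means that fell at each step and 5 had means that rose at each step (Neo1, Ntng2, Sema5b, Sema6a and Sema6b). A further 22 members were not called against 0 h at any time. The shares of all genes by time of first call, with repeated calls or with stepwise means were not counted. These counts therefore do not set the members apart from other genes. Of the 4 first called at 24 h, Plxna1 was not called at 96 h. The 24 h call of Plxnc1 was lost without 0 h replicate 3, and that of Sema4a without the filter and without 0 h replicate 2 or 3 or 24 h replicate 1 or 2 (adjusted p by limma up to 0.0629 and 0.0871). Between 96 h and 24 h the 15 members lower at 96 h were Sema3f, Sema4g, Nrp1, Nrp2, Plxna2, Plxnc1, Plxnd1, Efna2, Efna5, Efnb1, Efnb2, Epha5, Ephb3, Ntn4 and Dscam. Without the filter on low values Sema4g, Plxna2, Efna5 and Dscam were not among them. Without 96 h replicate 3 that count was 9, and 7 of the 15 were called in each of the 6 fits that left out 1 library of either time.

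The 39 members tested in both tables were set side by side. In Pax7 against Neo cells and at 96 h against 0 h, 5 were higher in both (Sema4c, Sema6b, Plxnb1, Ephb2 and Neo1) and 4 were lower in both (Sema3f, Plxnd1, Efna3 and Epha5). Epha5 could enter the Neo and Pax7 table only through the Neo libraries, where it was higher, and lends this count no support. Efnb2 was called in opposite directions. Another 17 were lower at 96 h and not called between Pax7 and Neo cells, among them Nrp1, Nrp2, Ntn4 and Ephb6, and 4 were called between Pax7 and Neo cells alone (Ntn3, Plxna3, Sema6d and Ephb3). The remaining 8 were called in neither. Of all genes, 36.6% were called in Pax7 against Neo cells and 33.8% at 96 h. The share of all genes called in both was not counted, so these counts do not set the members apart from other genes. Side by side, Ephb2 was higher by 0.69 in Pax7 cells and by 0.12 at 96 h, and Ntn4 was lower by 0.13 in Pax7 cells and by 1.11 at 96 h, on the log2 scale. The tables count gene bodies and exons, and differences between the systems were not tested.

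**Figure D4:**
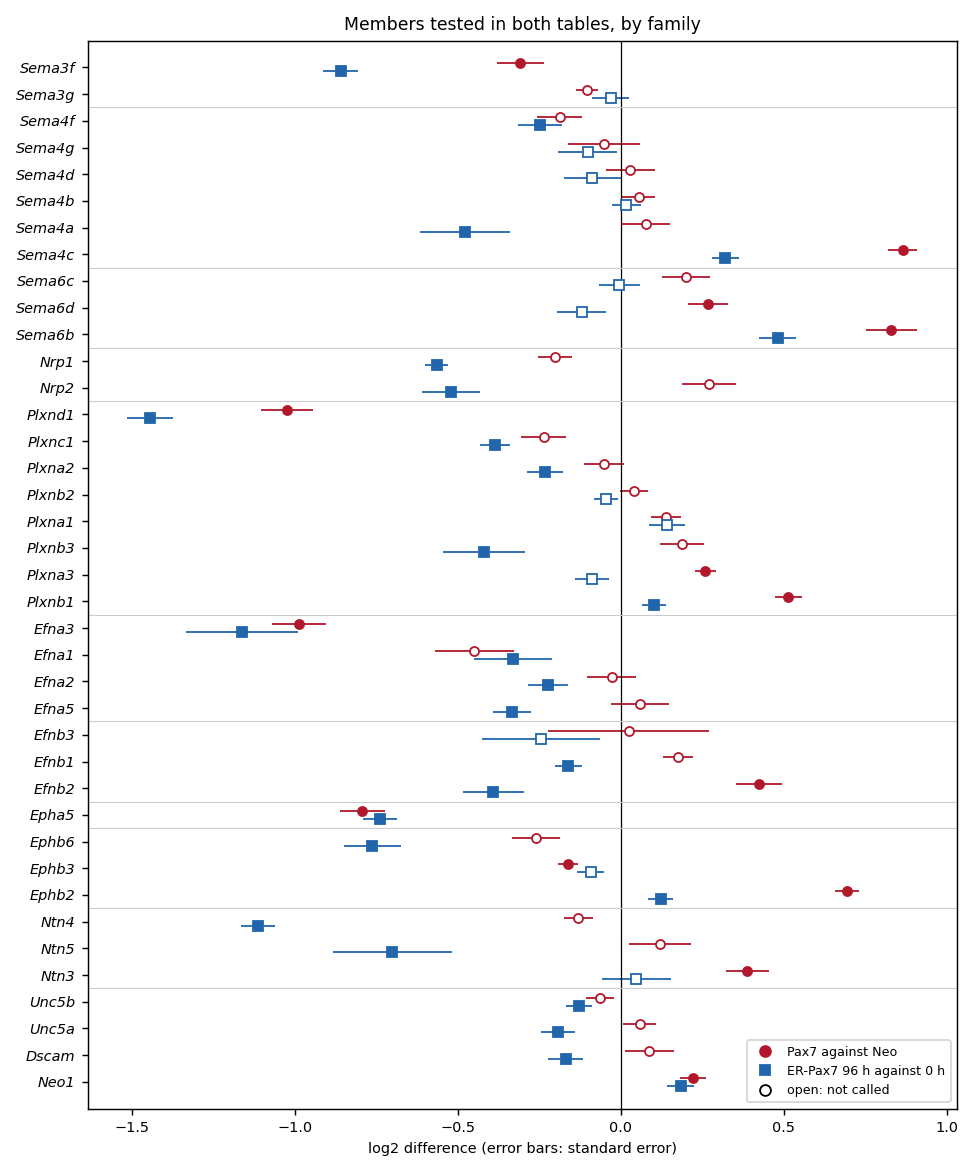
Log2 differences with standard errors of the 39 members tested in both tables, Pax7 against Neo cells (red circles) and ER-Pax7 at 96 h against 0 h (blue squares), filled where called. Sema4c and Sema6b lie to the right of 0 and Plxnd1, Efna3 and Epha5 to the left in both comparisons, whereas Ntn4 and Nrp1 are filled at 96 h alone.

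For 48 members a RefSeq start lies within 1 base of the gene start in the deposited tables, and for 47 of them on the same base. Of these, the windows of the 2 members with the largest rise in both systems and the 2 with the largest fall are shown, ranked by the smaller of their 2 differences. Epha5 could enter the Neo and Pax7 table only through the Neo libraries, where it was higher. Its place in this ranking therefore lends no support to a fall in both systems. Each window is the 250 bases before the RefSeq start of the gene (GRCm38.p6, which is mm10, minus strand, written in the sense of the gene). Pax7 binds DNA through a paired domain and a homeodomain, and the homeodomain core is ATTA. Capitals mark ATTA on either strand.
Sema6b, chr17:56133853-56134102: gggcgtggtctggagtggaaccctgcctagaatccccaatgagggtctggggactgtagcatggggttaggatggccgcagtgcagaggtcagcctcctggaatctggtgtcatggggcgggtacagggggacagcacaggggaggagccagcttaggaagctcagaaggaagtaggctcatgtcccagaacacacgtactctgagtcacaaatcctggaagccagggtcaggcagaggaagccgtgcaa
Sema4c, chr1:36558382-36558631: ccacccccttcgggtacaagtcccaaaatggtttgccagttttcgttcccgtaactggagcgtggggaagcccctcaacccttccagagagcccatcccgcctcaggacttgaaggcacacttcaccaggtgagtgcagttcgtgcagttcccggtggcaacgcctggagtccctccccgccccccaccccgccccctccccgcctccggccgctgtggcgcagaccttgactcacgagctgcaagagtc
Plxnd1, chr6:115995006-115995255: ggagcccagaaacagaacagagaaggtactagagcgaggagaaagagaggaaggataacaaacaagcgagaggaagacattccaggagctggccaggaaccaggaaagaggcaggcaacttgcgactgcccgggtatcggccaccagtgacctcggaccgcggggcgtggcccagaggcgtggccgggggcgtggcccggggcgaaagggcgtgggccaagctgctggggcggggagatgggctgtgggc
Epha5, chr5:84417383-84417632: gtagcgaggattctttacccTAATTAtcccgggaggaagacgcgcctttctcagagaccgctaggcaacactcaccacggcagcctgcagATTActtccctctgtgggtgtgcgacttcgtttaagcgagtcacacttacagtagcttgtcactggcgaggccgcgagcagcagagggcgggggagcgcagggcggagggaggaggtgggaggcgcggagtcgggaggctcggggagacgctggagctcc
The Epha5 window held 3 matches of ATTA, counted over both strands, of which 2 overlap as TAATTA, and the other 3 windows held none. Over all 32851 RefSeq promoter windows of this length 54.9% held ATTA on either strand. Of the 63 members with a window, 25 held it in at least 1 of their windows. This counts genes, whereas the share of 54.9% counts windows. The palindrome TAATNNATTA, which homeodomain pairs bind, was in 0.384% of all windows and the paired-domain core GTCACGC in 1.78%, each searched on both strands, and neither was in a window of any member. G and C made up 59.2% of the Sema6b window, 64.4% of that of Sema4c, 64.8% of that of Plxnd1 and 62.4% of that of Epha5, with 5, 15, 16 and 20 CG dinucleotides. A match is a run of letters and not a binding site.

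Genes that carry these signals inside the cell were counted in 4 lists. Of the semaphorin pathway partners, 8 of 17 tested were called in Pax7 against Neo cells, 5 higher and 3 lower, and 10 of 21 at 96 h, 4 higher and 6 lower. These are 47.1% and 47.6% of the list, beside 36.6% and 33.8% of all genes tested. Mical1, an enzyme that oxidises actin downstream of plexins, rose in both (log2 1.11, SE 0.0456; limma, adjusted p = 0.00202, and log2 0.78, SE 0.0479; limma, adjusted p = 8.97e-11 at 96 h). Rnd3, a GTPase that loosens actin fibres, fell in both (log2 −1.01, SE 0.0905; limma, adjusted p = 0.00573, and log2 −0.73, SE 0.0910; limma, adjusted p = 2.94e-06 at 96 h). Farp2, an exchange factor bound by plexin-A1, was higher by 0.32 at 96 h, and Rnd1 was lower by 0.34 in Pax7 cells on the log2 scale.

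Of the ephrin pathway partners, 6 of 12 tested were called in Pax7 against Neo cells, 4 higher and 2 lower, and 9 of 15 at 96 h, 2 higher and 7 lower, where 36.6% and 33.8% of all genes tested were called. Adam10, the protease that cuts A-type ephrins, rose in Pax7 cells (log2 0.74, SE 0.0404; limma, adjusted p = 0.00283). Vav3, an exchange factor of small GTPases, was listed at 0 in both Pax7 libraries, against 0.14 FPKM in both Neo libraries, and passed the filter through these alone. Grip1, which binds B-type ephrins, and the exchange factor Kalrn fell at 96 h, by 1.07 and 1.04 on the log2 scale, and Grip2 rose by 0.58. Itsn1, an endocytic scaffold, was higher by 0.39 in Pax7 cells.

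Of the Slit and netrin pathway partners, 13 of 24 tested were called in Pax7 against Neo cells, 5 higher and 8 lower, and 10 of 26 at 96 h, 1 higher and 9 lower. The share at 96 h, 38.5%, is near the 33.8% of all genes, and that in Pax7 cells was 54.2%, beside 36.6%. One of the 8 lower in Pax7 cells, Ablim3, passed the filter through the Neo libraries alone. Rgma, a ligand of neogenin, fell in Pax7 cells (log2 −0.82, SE 0.0615; limma, adjusted p = 0.0046), and Flrt3, a membrane protein that binds Unc5 and Robo receptors, rose there (log2 1.00, SE 0.0761; limma, adjusted p = 0.00466). Gpc1, a glypican that binds Slits, was lower by 0.38 in Pax7 cells. At 96 h Ablim3, Enah and Vasp, which bind actin, were lower by 0.95, 0.37 and 0.27 on the log2 scale.

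Of 25 small GTPases and actin effectors tested, 12 were called in Pax7 against Neo cells, 5 higher and 7 lower, and 11 at 96 h, 3 higher and 8 lower, beside the same 36.6% and 33.8% of all genes. The GTPase Rhou rose in both (log2 1.59, SE 0.0401; limma, adjusted p = 0.00115, and log2 1.35, SE 0.0633; limma, adjusted p = 1.32e-12 at 96 h). Gap43, a growth cone protein, fell in both (log2 −1.49, SE 0.0540; limma, adjusted p = 0.00179, and log2 −0.59, SE 0.0452; limma, adjusted p = 3.06e-09 at 96 h). Rhoc was lower by 1.05 in Pax7 cells, and the microtubule protein gene Stmn1 was lower by 0.34 at 96 h. The lists' medians at 96 h lay between −0.11 and −0.04, beside 0.00 over all genes.

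Marker lists of cell types were read beside these results. The 9 corticotrope markers summed to 2457 to 2514 FPKM in Pax7 cells, against 2446 to 2525 FPKM in Neo cells, and to 104136 to 111781 scaled exon reads at 96 h, against 105233 to 110126 at 0 h. At 12 and 24 h they summed to 94599 to 99417 and 88122 to 89968. These sums are mostly Pomc, at a mean of 2418 FPKM in Pax7 cells, against 2433 FPKM in Neo cells. Of 8 tested, 5 were called in Pax7 against Neo cells, 1 higher and 4 lower, beside 36.6% of all genes. Crhr1, lower there, passed the filter through the Neo libraries alone. At 96 h 7 of 8 were called, 4 higher and 3 lower, beside 33.8%. The 5 melanotrope markers summed to 3.98 to 4.14 FPKM in Pax7 cells, against 0.59 to 0.63 FPKM in Neo cells, and to 2572 to 2768 scaled exon reads at 96 h, against 1997 to 2189 at 0 h. Of them 3 of 3 tested were called higher in Pax7 cells, beside 36.6% of all genes, and 3 of 4 at 96 h, beside 33.8%. Some of the 3 passed the filter through the Pax7 libraries alone and lend that count no support. The 12 neuron markers summed to 147.7 to 147.8 FPKM in Pax7 cells, against 97.3 to 101.1 FPKM in Neo cells. Of 7 tested, 4 were called higher and 1 lower, which is 71.4%, beside 36.6% of all genes. At 96 h the neuron markers summed to 7585 to 7991 scaled exon reads, against 8356 to 8574 at 0 h. Of 9 tested there, 3 were higher and 4 lower, which is 77.8%, beside 33.8%. Slc17a6, Gad1, Gad2 and Dcx were listed at 0 in the 4 Neo and Pax7 libraries. Endothelial markers summed to 0.29 to 0.38 FPKM in Pax7 cells, against 0.18 to 0.22 FPKM in Neo cells, with Cdh5, Kdr and Emcn listed at 0. At 12 h they summed to 122 to 127 scaled exon reads and at 96 h to 105 to 114, against 86.9 to 94.5 at 0 h, with no overlap. At 96 h 1 of 3 tested was called higher, beside 33.8% of all genes called. Fibroblast markers summed to 0.24 to 0.3 FPKM in Pax7 cells, against 0.24 FPKM in Neo cells, with 6 of 8 listed at 0, and to 19.3 to 25.4 scaled exon reads at 96 h, against 25.4 to 34.7 at 0 h. At 96 h 1 of 3 tested was called lower, beside 33.8% of all genes called. Glia markers summed to 5.72 to 5.78 FPKM in Pax7 cells, against 4.19 to 4.61 FPKM in Neo cells, with Olig2 listed at 0, and to 1447 to 1502 scaled exon reads at 96 h, against 1408 to 1470.3 at 0 h. Of 2 glia markers tested in Pax7 against Neo cells, 1 was called higher and 1 lower, beside 36.6% of all genes called. At 96 h 0 of 5 tested were called, beside 33.8%. The part of these lists in the members' differences was not tested.

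In the authors' deposited table no member passed a false discovery rate of 0.05 between Pax7 and Neo cells, where 24 genes did in all, and 59 of the 73 members are listed there with a log2 fold of 0. The authors' deposited table lists 7 members that passed at 12 h, 10 at 24 h and 16 at 96 h, where 434, 888 and 2784 genes did in all. Of the 16, 4 were higher and 12 lower at 96 h. The 16 were Efna3, Efna5, Epha5, Epha8, Ephb2, Ephb6, Neo1, Nrp1, Ntn4, Plxna2, Plxnc1, Plxnd1, Sema3f, Sema4c, Sema6b and Unc5a in the authors' deposited table.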

How the data were processed

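Ribosomal RNA was removed from total RNA before paired-end sequencing, per the labels' protocols. The submitters' processing notes name TopHat, HOMER and edgeR with no version and the build mm10 (GRCm38). Per the file headers, the authors counted exon reads of the ER-Pax7 libraries with no strand setting, and the values show that this deposited signal was scaled to 1 common total. Per the file headers, the authors gave the Neo and Pax7 libraries as FPKM over gene bodies, here rounded to 2 decimals, which is coarse for long genes. The authors' deposited log2 folds and FDR columns (adjusted p-values from edgeR run through HOMER, per the file headers) served for comparison only.

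Each value was divided by a TMM factor (edgeR 4.0.16). After adding a pseudocount of 1 scaled read or 0.1 FPKM, log2 differences were tested by limma 3.58.1 in R 4.3.3 within each table, with the 12 ER-Pax7 libraries in 1 model and p-values adjusted over all genes. The pseudocount understates changes of low genes. Levels in the text are deposited values. Groups are said not to overlap where this held with and without TMM factors. Between 10 and 40 scaled reads, 97.6% to 100% of ER-Pax7 values were whole multiples of 1 read within 0.0052 scaled reads, and the recovered reads served for edgeR and DESeq2 1.42.0 as alternatives. Such depth covers counting error only, and the errors given are the spread between libraries. The scripts were tested on simulated data.

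The members, the partner and marker lists and the tests were chosen with earlier results of these data known. A member was given in every library where it was called with a log2 difference of at least 0.5 and no overlap in Pax7 against Neo cells or at 96 h against 0 h, or had the highest level per kb at 0 h in its family. Each list names the called genes with the 3 smallest adjusted p in either comparison. The result of 1 marker list is not reported here.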

Additional observations from a re-analysis of the deposited data

Results flagged for a closer look

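In 9 members every library moved one way in Pax7 against Neo cells and the opposite way in ER-Pax7 cells at 96 h against 0 h, with no overlap of either pair of groups. The share of all genes that did so was not counted. Of the members tested, 28 of 39 had groups without overlap in Pax7 against Neo cells, with 2 libraries each, and 37 of 55 at 96 h. The share of all genes without overlap was not counted either, so these counts do not set the members apart from other genes. The difference between the 2 systems was not tested. Efnb2, called in both, was at log2 0.42 in Pax7 cells and −0.39 at 96 h. Nrp2 was at 0.27 and −0.52, Plxnb3 at 0.19 and −0.42, Sema4a at 0.0766 and −0.48, Efnb1 at 0.17 and −0.16, Dscam at 0.0877 and −0.17, and Unc5a at 0.0579 and −0.19, and these 6 were called at 96 h alone. Sema4a could enter the Neo and Pax7 table only through the Pax7 libraries, where it was higher, and lends this count no support. It had 0.1 FPKM there, against 0.08 and 0.09 FPKM in Neo cells. Dscam had 0.14 and 0.12 FPKM in Pax7 cells, against 0.11 FPKM in both Neo libraries, so its groups lay near the rounding step of the deposited FPKM. In Pax7 against Neo cells Dscam, Sema4a and Unc5a were far from a call (by limma, adjusted p = 0.411, 0.464 and 0.42). Plxna3 was at 0.26 and −0.09 and Sema6d at 0.27 and −0.12, both called in Pax7 cells alone.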

How the results depend on the processing

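None of the 86 calls of members reversed direction under any alternative run. Of the 25 members not called between Pax7 and Neo cells, 3 turned sign without TMM factors (Efna2, Sema4g and Unc5b), and none of the 3 was called. Between Pax7 and Neo cells 14 members were called, and leaving out 1 library at a time left 7 to 9, with 7 of the 14 kept in each such fit (Sema4c, Sema6b, Plxnb1, Ephb2, Efna3, Plxnd1 and Epha5, the last in the fits that could test it); with 1 library in a group, that library is assumed to vary like the others. With the replicate block 9 were called there, 15 at 12 h, 18 at 24 h, 33 at 96 h and 17 between 96 h and 24 h. Deviations of libraries with the same number correlated by −0.0824 to 0.144 in the ER-Pax7 table and by 0.0375 between Pax7 and Neo. Those with different numbers correlated by −0.128 to 0.0979 in the ER-Pax7 table. The deviations are from means of 2 or 3 libraries and are not independent, so these values cannot decide whether the numbers mark pairs. Leaving out 1 library gave 9 to 12 calls at 12 h, 13 to 16 at 24 h, 27 to 33 at 96 h and 9 to 14 between 96 h and 24 h, the 9 without 96 h replicate 3. On recovered reads edgeR called 11, 14, 33 and 16 members and DESeq2 15, 15, 33 and 17 in these 4 comparisons, and each of the 72 calls was kept by both. Without TMM factors, with other pseudocounts or without the filter no total of called members moved by over 1.5 times, but without TMM factors 3 members were lower in Pax7 than in Neo cells, against 5 with them (Sema3f and Ephb3 lost). Without the filter 11 of the 86 calls were lost: Sema3f and Sema6d in Pax7 cells, Efna3 and Ephb6 at 12 h, Sema4a and Plxna1 at 24 h, Efna1 at 96 h, and Sema4g, Plxna2, Efna5 and Dscam between 96 h and 24 h. The 18 members that passed no filter could not be compared, and why their values were low was not tested. Rounding limits FPKM of long genes.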
